A study of Homo sapiens with 6 samples.

Results

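Transcripts of 10 genes for AP-1 and immediate-early transcription factors were compared between METTL3-knockout (METTL3-KO) and wild-type (WT) HCT116 cells. The genes were FOS, FOSB, FOSL1 and FOSL2 of the Fos family, JUN, JUNB and JUND of the Jun family, the partner genes ATF3 and BATF3, and the zinc finger gene EGR1. They were chosen by symbol, with earlier results of these data known, so their share of calls is a description and not independent evidence. All 10 were found among the 56638 gene symbols of the count data. All 10 also passed the count minimum, which left 22452 genes for testing. RNA-seq gave counts of read pairs per gene for 3 WT and 3 METTL3-KO libraries. HCT116 is a human colorectal carcinoma cell line, and both groups were grown in the same serum-containing medium and labelled with passage 16 to 19. METTL3 is the catalytic subunit of the complex that writes N6-methyladenosine (m6A) on mRNA, and the comparison asks how its loss changes the transcriptome of colorectal cancer cells. According to the study's methods, the METTL3-KO cells are a single monoclonal line made with a lentiviral CRISPR-Cas9 vector and puromycin, so features of that clone and effects of the knockout cannot be told apart. Whether the WT cells had also carried a vector or been selected, and how long before harvest the medium was last changed, is not given in the sources used here. The labels do not say that the samples came from separate cultures, and p-values measure only the spread between these samples.

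AP-1 is a dimeric transcription factor built from basic leucine zipper (bZIP) proteins. Jun proteins pair with each other or with Fos proteins, whereas Fos proteins need a partner, and the dimers bind the TPA response element TGANTCA or, with ATF partners, cAMP response elements. FOS, FOSB, JUNB and EGR1 are textbook immediate-early genes, whose transcription starts within minutes of a growth factor or stress signal without new protein synthesis, and whose mRNAs are short-lived. In colorectal carcinoma, the RAS-MAP kinase pathway is a common driver of these genes.

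Of the members, 5 rose in METTL3-KO cells and none fell at a Benjamini-Hochberg adjusted p under 0.05 by edgeR's quasi-likelihood test, against a background of 13.3% of all tested genes called higher and 13.2% called lower. That background includes genes with few counts. Apart from the members, 12823 of the 22452 tested genes had a mean log2 CPM of at least 1. No background matched in expression level was used, here or for the gene lists below. FOSB rose most (2.10-fold), followed by EGR1 (1.73-fold), FOSL1 (1.52-fold), FOS (1.36-fold) and JUNB (1.35-fold). FOSL2, ATF3, JUN, JUND and BATF3 did not pass the test. In each of the 5 genes that rose, all METTL3-KO samples lay above all WT samples, a separation found in 20.2% of all tested genes. The median log2 fold change of the 10 members was 0.34, and it was 0.44 without BATF3, which had almost no counts. Over all tested genes the median was -0.02. In cultured cells, as in any bulk sample, fewer cells expressing a gene and less RNA per cell cannot be told apart.

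As a check of the labels, METTL3 was at 30.6, 30.2 and 29.2 CPM (counts scaled to library size after TMM normalization) in WT replicates 1 to 3 and at 7.26, 7.69 and 6.89 in METTL3-KO replicates 1 to 3. It was 4.12-fold lower in METTL3-KO cells (log2 fold change -2.04, SE 0.0906, adjusted p = 1.59e-07 by edgeR), with no overlap between the groups. This shows which samples have less METTL3 mRNA, but it cannot tell a knockout from a knockdown. The submitters' files call the groups NC and SiM3, whereas the labels and the study's methods describe WT and knockout cells. The libraries held 20936091 to 30142144 counts on genes. WT replicate 3 and METTL3-KO replicate 3 stood apart from their groups. The chi-square per gene was 23.1 and 23 between WT replicate 3 and the other WT samples against 2.58 between WT replicates 1 and 2, and 11.2 and 8.32 for METTL3-KO replicate 3 against 2.34. Read pairs in no gene made up 9.08% of WT replicate 3, 6.03% of METTL3-KO replicate 3 and 6.83% to 7.1% of the other samples. Results are therefore also given with both of these libraries left out.

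The promoter sequences of EGR1, FOS, FOSB and JUNB, which are 4 of the 5 members that rose, are shown first, with JUN for contrast, because these genes are known for compact promoters that receive growth factor and cAMP signals. Each line is the 150 bases before the RefSeq start site on GRCh38.p14, read 5′ to 3′ on the gene's own strand, and capitals mark the letters of any motif found. The motifs searched on both strands were the CArG box bound by SRF, the TPA response element TGANTCA, the cAMP response elements TGACGTCA and TGACGT (which lies inside TGACGTCA), the JUN-type variant TGACATCA, the EGR1 motif GCGNGGGCG and the TATA word TATAAA. The regions are chr5:138465329-138465478 on the plus strand for EGR1, chr14:75278678-75278827 (plus) for FOS, chr19:45467846-45467995 (plus) for FOSB, chr19:12791336-12791485 (plus) for JUNB and chr1:58784048-58784197 (minus) for JUN.
EGR1: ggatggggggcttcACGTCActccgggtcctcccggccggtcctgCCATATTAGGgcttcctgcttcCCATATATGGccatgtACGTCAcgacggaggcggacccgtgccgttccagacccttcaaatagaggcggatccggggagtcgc
FOS: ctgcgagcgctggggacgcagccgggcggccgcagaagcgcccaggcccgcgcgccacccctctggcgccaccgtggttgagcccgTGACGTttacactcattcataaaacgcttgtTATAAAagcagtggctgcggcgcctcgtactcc
FOSB: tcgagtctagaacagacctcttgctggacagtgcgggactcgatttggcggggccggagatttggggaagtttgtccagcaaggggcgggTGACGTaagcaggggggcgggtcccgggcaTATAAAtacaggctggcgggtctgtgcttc
JUNB: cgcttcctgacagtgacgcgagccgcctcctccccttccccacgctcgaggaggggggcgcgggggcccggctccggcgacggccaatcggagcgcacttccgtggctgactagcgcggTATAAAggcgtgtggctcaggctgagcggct
JUN: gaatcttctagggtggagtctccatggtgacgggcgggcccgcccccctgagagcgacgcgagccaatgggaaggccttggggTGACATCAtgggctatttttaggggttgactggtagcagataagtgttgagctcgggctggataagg

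EGR1 held CArG boxes at -105 to -96 and at -83 to -74 from its start site, and TGACGT on the minus strand at -136 to -131 and -67 to -62. FOS and FOSB shared an arrangement of TGACGT (from -64 and -60) followed by TATAAA (from -33 and -30). JUNB held TATAAA at -31 to -26, and JUN held TGACATCA at -67 to -60. In windows of 250 bases before to 50 after the start, which is how all promoters were searched, FOSL2 held TGACGT at -66 to -61 and the TPA element TGACTCA at 5 to 11, downstream of the start. JUND held TGACGTCA at -200 to -193 and a further TGACGT on the minus strand at -87 to -82, and ATF3 held TGACATCA at -123 to -116 of its upstream start and TATAAA at -230 to -225 of its downstream start. EGR1 held GCGCGGGCG, its own protein's motif, at -198 to -190. Among all 35116 RefSeq promoters of the same length, 1.29% held a CArG box, 7.71% TGANTCA, 1.85% TGACGTCA, 2.61% TGACATCA, 7.98% TGACGT, 9.43% GCGNGGGCG and 11.5% TATAAA. A match is a description of letters, and a missing match says only that those letters are not in this window. FOSL1, the other member that rose, and BATF3 are named only.

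FOSB, a Fos protein whose mRNA is strongly inducible, lies at chr19:45971253-45978437 of GRCh37 on the plus strand, with 4 exons. Its counts were 156, 112 and 111 in WT and 358, 231 and 258 in METTL3-KO replicates 1 to 3. This corresponded to 5.68, 4.95 and 5.2 CPM in WT and 11.9, 10.5 and 11 CPM in METTL3-KO cells. The groups were far apart compared with the spread inside each, and the lowest METTL3-KO value was well above the highest WT value. The mean rose from 5.28 ± 0.37 to 11.1 ± 0.695 CPM (SD, n = 3 each), or 1.07 on the log2 scale with an SE of 0.112 (adjusted p = 3.69e-05 by edgeR). With each sample left out in turn it ran from 1.02 to 1.13 and passed each time. FOSB lies inside the longest annotated span of ERCC1, a DNA repair gene on the opposite strand, but the 3775 exon bases of FOSB share 0 bases with ERCC1 exons. ERCC1 was at 98.6 ± 8.56 and 105 ± 4.53 CPM (SD, n = 3 each), and its groups overlapped (log2 fold change 0.09, adjusted p = 0.438 by edgeR).

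FOS, the founding Fos gene and the partner of JUN in classical AP-1, lies at chr14:75745529-75748933 of GRCh37 on the plus strand, with 4 exons. Its counts were 623, 569 and 521 in WT and 978, 770 and 730 in METTL3-KO cells, or 22.7, 25.2 and 24.4 CPM against 32.4, 35 and 31 CPM. All METTL3-KO samples were above all WT samples. The mean rose from 24.1 ± 1.27 to 32.8 ± 2.03 CPM (SD, n = 3 each), or 0.45 on the log2 scale with an SE of 0.0848 (adjusted p = 0.0021 by edgeR), with 0.40 to 0.49 when single samples were dropped. The change in FOS was smaller than that in FOSB, and this difference between the genes was not tested.

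FOSL1 (FRA-1), a Fos protein without a transactivation domain like that of FOS and one linked to invasion in epithelial tumours, lies at chr11:65659520-65668044 on the minus strand of GRCh37, with 4 exons. It had 327, 288 and 217 counts in WT and 544, 371 and 427 in METTL3-KO cells, or 11.9, 12.7 and 10.2 CPM against 18, 16.9 and 18.2 CPM. The groups did not overlap. FOSL1 rose from 11.6 ± 1.31 to 17.7 ± 0.707 CPM (SD, n = 3 each), or 0.61 on the log2 scale with an SE of 0.103 (adjusted p = 0.00102 by edgeR).

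FOSL2 (FRA-2), its close relative, lies at chr2:28615315-28640184 of GRCh37 on the plus strand, with 4 exons. It had 2252, 1682 and 2073 counts in WT and 3297, 2221 and 2131 in METTL3-KO cells, or 82, 74.4 and 97.2 CPM against 109, 101 and 90.6 CPM. WT replicate 3 was the highest WT sample and METTL3-KO replicate 3 the lowest METTL3-KO sample, and these values crossed. Its log2 fold change of 0.25 had an SE of 0.104 (adjusted p = 0.102 by edgeR). It passed without WT replicate 3 (0.36, adjusted p = 0.00183), without both replicate 3 libraries (0.43, adjusted p = 3.69e-10), without a filter on low counts (0.26, adjusted p = 0.0185) and after adjusting each library for the length and GC content of its transcripts (0.20, adjusted p = 0.0443), all by edgeR. In no setting did it change sign.

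**Figure D1:**
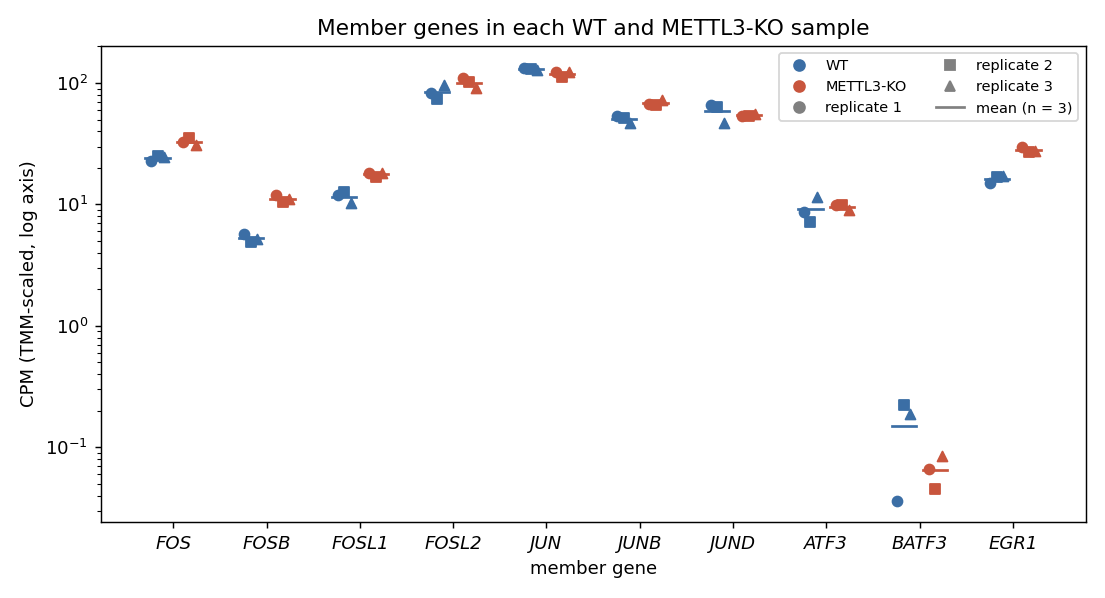
Level of each member gene in every sample, in TMM-scaled CPM on a log axis, with WT in blue, METTL3-KO in red, a different symbol for each replicate number and a line at the mean of 3 samples. FOS, FOSB, FOSL1, JUNB and EGR1 show METTL3-KO points wholly above WT points, FOSL2, JUND, ATF3 and BATF3 show overlapping groups, and JUN shows METTL3-KO points slightly below WT points.

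In the Jun family, JUNB rose while JUN and JUND did not pass the test. JUNB, which can both activate and restrain AP-1 targets, lies at chr19:12902300-12904129 of GRCh37 on the plus strand, in 1 exon. Its counts were 1483, 1169 and 996 in WT and 2023, 1458 and 1715 in METTL3-KO cells, or 54, 51.7 and 46.7 CPM against 67.1, 66.3 and 72.9 CPM. The lowest METTL3-KO sample was above the highest WT sample. The mean rose from 50.8 ± 3.74 to 68.8 ± 3.6 CPM (SD, n = 3 each), or 0.44 on the log2 scale with an SE of 0.0812 (adjusted p = 0.00185 by edgeR). Without both replicate 3 libraries it was 0.33 (adjusted p = 8.02e-07 by edgeR). In the annotation used here, exons of HOOK2, on the opposite strand, cover 259 of the 1830 exon bases of JUNB (14.2%). The canonical HOOK2 transcript covers 0 of them. Whether the authors' annotation held the overlapping exons was not checked. If it did, reads there could be left uncounted or assigned to either gene, depending on a strand setting that is not given in the sources used here. HOOK2 was at 90.1 ± 8.01 and 85.8 ± 2.59 CPM (SD, n = 3 each), a log2 fold change of -0.07 (adjusted p = 0.559 by edgeR).

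JUN, the most abundant member per kb in WT cells and the main Jun partner of FOS, lies at chr1:59242517-59249720 of GRCh37 on the minus strand, in 1 exon. Its counts were 3680, 2945 and 2723 in WT and 3744, 2454 and 2901 in METTL3-KO cells, or 134, 130 and 128 CPM against 124, 112 and 123 CPM. Every METTL3-KO value was below every WT value, yet the distance was small. The mean was 131 ± 3.2 in WT and 120 ± 7.01 CPM in METTL3-KO cells (SD, n = 3 each), or -0.13 on the log2 scale with an SE of 0.0721 (adjusted p = 0.231 by edgeR). It passed in 1 setting, without both replicate 3 libraries (-0.16, adjusted p = 0.00269 by edgeR).

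JUND, the constitutively expressed Jun gene, lies at chr19:18390504-18392432 of GRCh37 on the minus strand, in 1 exon, and its transcript had the highest GC content of the members, at 69.9%. Its counts were 1812, 1428 and 991 in WT and 1621, 1175 and 1313 in METTL3-KO cells, or 66, 63.2 and 46.5 CPM against 53.8, 53.5 and 55.8 CPM. WT replicate 3 was below all METTL3-KO samples, and the other WT samples were above all of them. Its log2 fold change of -0.11 had an SE of 0.114 (adjusted p = 0.526 by edgeR), against -0.25 without WT replicate 3 (adjusted p = 0.00767), -0.27 without both replicate 3 libraries (adjusted p = 3.39e-05) and -0.01 after adjusting for length and GC content (adjusted p = 0.952), all by edgeR. It was -0.01 without WT replicate 1 (adjusted p = 0.953) and -0.04 without WT replicate 2 (adjusted p = 0.853), also by edgeR. The JUND value thus depended on which WT sample was left out. In WT replicate 3, transcript length and GC content accounted for a share of 0.191 of the variance of the log2 deviations across 10026 genes. The share was 0.0425 to 0.106 in the other samples.

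ATF3, a stress-induced bZIP protein that pairs with Jun proteins, lies at chr1:212738676-212794119 of GRCh37 on the plus strand. It had 239, 162 and 245 counts in WT and 296, 217 and 212 in METTL3-KO cells, or 8.7, 7.17 and 11.5 CPM against 9.82, 9.87 and 9.01 CPM. The WT samples enclosed all METTL3-KO samples. Its log2 fold change of 0.07 had an SE of 0.151 (adjusted p = 0.76 by edgeR), turned to -0.06 without WT replicate 2, and was 0.30 (adjusted p = 0.0314 by edgeR) without both replicate 3 libraries. BATF3, a Jun partner best known from dendritic cells, lies 65.6 kb from ATF3 on chromosome 1 and was close to absent, with 1, 5 and 4 counts in WT and 2, 1 and 2 counts in METTL3-KO cells. At this depth no difference in BATF3 was detectable, and no fold is given.

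EGR1, the zinc finger factor that serves as a common readout of ERK and SRF activity, lies at chr5:137801168-137804992 of GRCh37 on the plus strand, with 2 exons. Its counts were 408, 378 and 368 in WT and 899, 589 and 655 in METTL3-KO cells, or 14.9, 16.7 and 17.3 CPM against 29.8, 26.8 and 27.8 CPM. The groups were widely separated. EGR1 rose from 16.3 ± 1.26 to 28.2 ± 1.53 CPM (SD, n = 3 each), or 0.79 on the log2 scale with an SE of 0.0915 (adjusted p = 7.27e-05 by edgeR), and its log2 fold change stayed between 0.73 and 0.84 when single samples were dropped.

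FOSB, EGR1, FOSL1, FOS and JUNB passed in every setting tried, as the plot of the members' changes across settings shows. Without both replicate 3 libraries, 7 members were higher (these 5 with FOSL2 and ATF3) and 2 lower (JUN and JUND) by edgeR. That fit compares 2 samples with 2 and called 21.4% of its 21242 tested genes higher and 22.7% lower, so its larger number of calls is not particular to the members. The spread between the remaining libraries was small, and whether they were separate cultures is not stated.

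**Figure D2:**
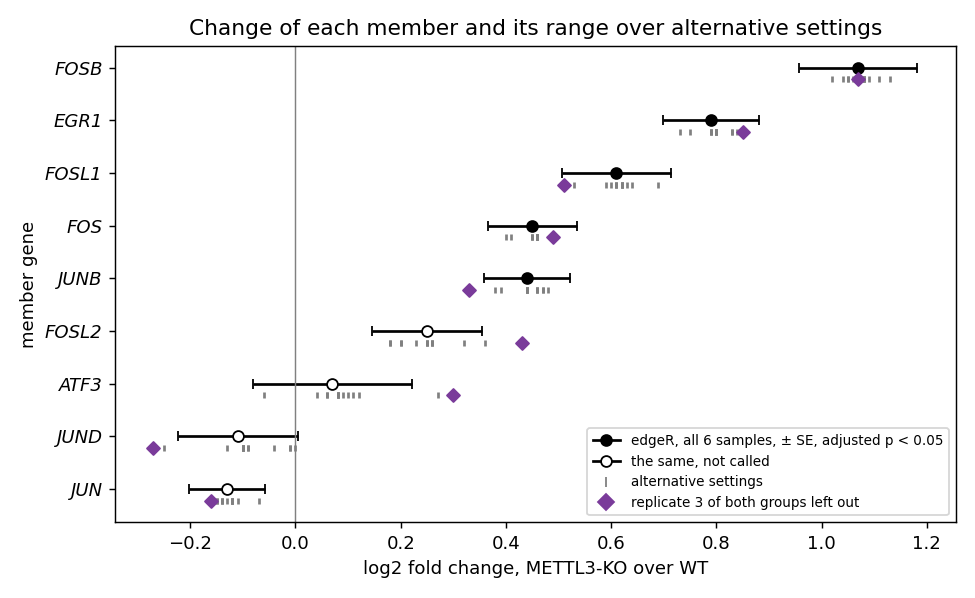
Log2 fold change of METTL3-KO over WT for each member apart from BATF3, with circles for edgeR on all 6 samples, bars of 1 SE, filled circles for an adjusted p under 0.05, grey ticks for the alternative settings and violet diamonds for the fit without both replicate 3 libraries. FOSB, EGR1, FOSL1, FOS and JUNB keep all ticks above 0, whereas the ticks of ATF3 fall on both sides of 0 and those of JUND reach from -0.27 to 0.

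To compare levels between genes, CPM were divided by the length of each gene's canonical transcript (CPM per kb). In WT cells JUN was highest at 40.1 ± 0.981 CPM per kb, followed by JUND at 30.3 ± 5.47, JUNB at 27.8 ± 2.04, FOSL2 at 12.6 ± 1.73, FOS at 11.5 ± 0.605 and FOSL1 at 6.82 ± 0.769 CPM per kb (SD, n = 3 each). EGR1 at 5.19 ± 0.401, ATF3 at 4.7 ± 1.13 and FOSB at 1.4 ± 0.0979 CPM per kb came next, and BATF3 was last at 0.177 ± 0.118 (SD, n = 3 each). Neighbours whose WT samples overlapped were JUND and JUNB, FOSL2 and FOS, and EGR1 and ATF3. In METTL3-KO cells JUNB came first at 37.6 ± 1.97 CPM per kb, overlapping with JUN at 36.8 ± 2.15, and JUND came next at 28.2 ± 0.668 (SD, n = 3 each). FOS at 15.6 ± 0.963 CPM per kb came before FOSL2 at 14.9 ± 1.4 (SD, n = 3 each), again with overlapping samples. FOSB, with the largest fold change, was the lowest of the well-counted members in both groups, at 2.95 ± 0.184 CPM per kb in METTL3-KO cells (SD, n = 3).

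Summed over its 4 genes, the Fos family stood at 31.5, 31.8 and 33.4 CPM per kb in WT and 45.5, 44.4 and 41.8 CPM per kb in METTL3-KO replicates 1 to 3. The Jun family sum was 105, 101 and 88.8 in WT and 103, 98.2 and 107 CPM per kb in METTL3-KO cells. The Fos sums did not overlap between groups and the Jun sums did. Within the Fos family, FOSB made up 4.34% ± 0.378 of the WT sum and 6.71% ± 0.384 of the METTL3-KO sum, FOS 35.5% ± 1.8 and 35.6% ± 1.81, FOSL1 21.2% ± 2.95 and 23.7% ± 1.62, and FOSL2 39% ± 4.25 and 34% ± 1.79 (SD, n = 3 each). Within the Jun family, JUNB made up 28.3% ± 0.399 in WT and 36.7% ± 0.848 in METTL3-KO cells, JUN 41% ± 2.73 and 35.8% ± 1.16, and JUND 30.7% ± 3.12 and 27.5% ± 0.617 (SD, n = 3 each). FOS and FOSL2 had the largest Fos shares in both groups. JUNB had the smallest mean share of the Jun family in WT cells and a share close to that of JUN in METTL3-KO cells.

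**Figure D3:**
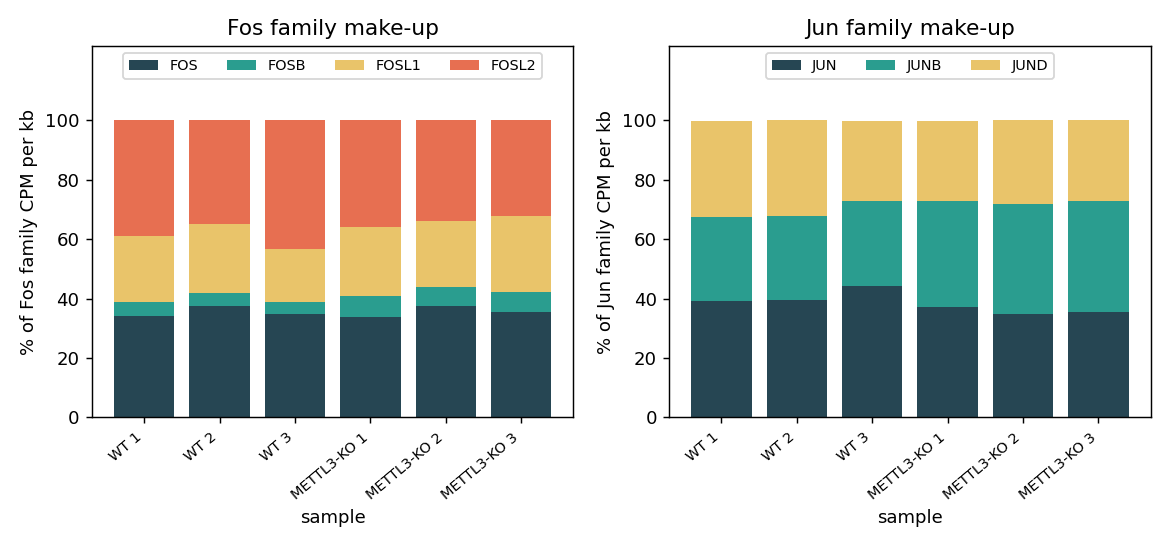
Share of each gene in the summed CPM per kb of the Fos family (left) and the Jun family (right), as stacked bars from 0 to 100% for each of the 6 samples. The FOSB band widens from 4.12% to 4.78% in WT to 6.27% to 6.95% in METTL3-KO samples, and the JUNB band from 28% to 28.7% to 35.7% to 37.4%.

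Ratios inside a library do not depend on how libraries were scaled. FOS had 0.169, 0.193 and 0.191 counts per JUN count in WT and 0.261, 0.314 and 0.252 in METTL3-KO cells (mean log2 difference 0.57). JUNB had 0.403, 0.397 and 0.366 counts per JUN count in WT and 0.54, 0.594 and 0.591 in METTL3-KO cells (0.57), and EGR1 had 0.111, 0.128 and 0.135 against 0.24, 0.24 and 0.226 (0.92). FOSB had 0.0693, 0.0666 and 0.0535 counts per FOSL2 count in WT and 0.109, 0.104 and 0.121 in METTL3-KO cells (0.82). In these 4 ratios the groups did not overlap, and each reached an exact two-sided permutation p of 0.1, the smallest that 3 samples against 3 allow (0.125 after Benjamini-Hochberg adjustment over 5 ratios). Each of the 4 sets a gene called higher against a gene that was not called, so the ratios are a description and not separate evidence. The ratio of FOSL1 to FOSL2 overlapped between groups, at 0.145, 0.171 and 0.105 against 0.165, 0.167 and 0.2 (exact permutation p = 0.3, adjusted p = 0.3).

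The mRNAs of the members were searched for 2 kinds of short words, since AU-rich words in the 3′UTR are known for marking immediate-early mRNAs for decay, and since METTL3 methylates adenosines in words such as GGACT. The word ATTTA was in the 3′UTR of all 10 members, from 1 time in FOSL1, JUND, EGR1 and BATF3 to 5 times in FOS and 9 times in FOSL2, against 68.7% of 19069 canonical 3′UTRs. The members' 3′UTRs ran from 374 bases in BATF3 to 806 in FOS and 4869 in FOSL2. Over all canonical 3′UTRs the word occurred 2.25 times per kb. Counts and shares of 3′UTR words, here and below, were not adjusted for length, so they do not show an excess in the members. The longer word TTATTTATT, which contains ATTTA, was in FOS and FOSL2 and in none of the other members, against 8.57% of all 3′UTRs. These sites are shown with 8 bases on each side and the word in capitals, at chr14:75748765-75748789 for FOS and chr2:28639224-28639248 for FOSL2, both on the plus strand of GRCh37.
FOS: tttttaatTTATTTATTaagatgga
FOSL2: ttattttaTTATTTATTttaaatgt

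GGACT was in the 3′UTR of 8 members, from 1 time in FOSB, JUNB and ATF3 to 7 times in FOSL2, against 58.5% of all canonical 3′UTRs. EGR1 and BATF3 held it nowhere in their canonical transcripts. Per kb of transcript, JUN held most (1.54), followed by FOS (1.43) and FOSB (1.32), and JUNB held 0.55. Other words that METTL3 can methylate were not searched, and a relation between GGACT and the fold changes was not tested. No methylation of the members was measured in the counts, and a word is not a methylated site.

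The 3 genes most like FOSB, the member with the smallest p, were NR2F2 (Pearson's r of log2 CPM over the 6 samples 0.9986), ZHX2 (0.9983) and TMEM45B (0.9976), among 12823 genes compared. NR2F2, a nuclear receptor, had means of 77.3 and 107 CPM in WT and METTL3-KO cells, ZHX2 of 20.4 and 31.9, and TMEM45B of 70.9 and 128 CPM. The 6 points fall in 2 groups and share libraries across genes, so these values are a description only.

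Gene lists around the members were also described. All lists here and below were chosen with earlier results of these data known. Of 33 other immediate-early genes, 32 were tested, 13 rose (40.6%, against 13.3% of all tested genes) and 4 fell (12.5%, against 13.2%), with a median log2 fold change of 0.23. CCN1, the matrix protein CYR61, rose from 3.24 ± 0.957 to 10.9 ± 1.26 CPM (SD, n = 3 each), or 1.74 on the log2 scale with an SE of 0.182 (adjusted p = 3.59e-05 by edgeR). SGK1, a serum- and glucocorticoid-induced kinase, rose by 1.16 log2 units (SE 0.079, adjusted p = 1.93e-06 by edgeR) and PLK2, a polo-like kinase, by 0.70 (SE 0.0653, adjusted p = 1.60e-05). BTG2, an antiproliferative p53 target, moved the other way, from 44.2 ± 3.05 to 20.1 ± 1.82 CPM (SD, n = 3 each), and fell by 1.14 log2 units (SE 0.0935, adjusted p = 7.07e-06 by edgeR). Across the settings the list had 10 to 15 members higher and 2 to 7 lower, with 2 lower without WT replicate 1, WT replicate 2, METTL3-KO replicate 1 or METTL3-KO replicate 2.

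Of 25 other bZIP genes, 24 were tested, 5 rose and 4 fell, with a median of 0.00. CEBPD, a C/EBP factor of the acute phase response, rose by 0.76 (SE 0.142, adjusted p = 0.00186 by edgeR). NFE2L2 (NRF2), the oxidative stress factor, fell by 0.51 (SE 0.0699, adjusted p = 0.000225 by edgeR) and ATF5, a mitochondrial stress factor, by 0.49 (SE 0.091, adjusted p = 0.00195), all on the log2 scale. The list held genes moving both ways, at 20.8% higher and 16.7% lower against 13.3% and 13.2% of all tested genes. Across settings, 3 to 6 of its genes were higher and 3 to 7 lower.

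Upstream of the members, 25 genes for MAP kinases and SRF cofactors were all tested, of which 5 rose and 3 fell, with a median of 0.08. MAPK3 (ERK1) rose by 0.67 (SE 0.0958, adjusted p = 0.000307 by edgeR). These shares (20% and 12%) stood beside 13.3% higher and 13.2% lower over all tested genes, so the lower calls were at the background. MAP2K4, which phosphorylates JNK, fell from 23.2 ± 0.853 to 11.6 ± 0.23 CPM (SD, n = 3 each; log2 fold change -0.99, SE 0.0862, adjusted p = 9.73e-06 by edgeR). MAP2K6, which phosphorylates p38, fell by 0.91 (SE 0.118, adjusted p = 0.000161) and MAPK8 (JNK1), a kinase that phosphorylates JUN, by 0.51 (SE 0.0807, adjusted p = 0.000635), on the log2 scale by edgeR. MAP2K3, another kinase that phosphorylates p38 and one named after its values were seen, rose by 0.51 log2 units (SE 0.0802, adjusted p = 0.000639 by edgeR). Across settings, 2 to 11 genes of this list were higher and 3 to 5 lower. The higher count was 3 without WT replicate 1, WT replicate 2, METTL3-KO replicate 1 or METTL3-KO replicate 2, and 8 without WT replicate 3.

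Of 30 textbook AP-1 target genes, 25 were tested, 7 rose (28%, against 13.3% of all tested genes) and 3 fell (12%, against 13.2%), with a median of 0.03. Across settings, 5 to 9 were higher and 1 to 4 lower, with 1 lower without WT replicate 2, METTL3-KO replicate 2 or METTL3-KO replicate 3. CXCL8, the chemokine interleukin-8, rose from 2.71 ± 0.629 to 7.99 ± 0.696 CPM (SD, n = 3 each), or 1.57 on the log2 scale with an SE of 0.165 (adjusted p = 3.83e-05 by edgeR). EZR, the membrane linker ezrin, rose by 0.48 (SE 0.0701, adjusted p = 0.000341) and CCND1, cyclin D1, by 0.39 (SE 0.0713, adjusted p = 0.00155), on the log2 scale by edgeR. Most tested members of the list (15) did not pass, and the median lay close to that of all genes.

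Stress and cell type markers were described in the same way. Of 11 heat shock genes, 7 rose (63.6%, against 13.3% of all tested genes) and none fell (against 13.2%), with a median of 0.40. Their summed level was 3326 to 4259 CPM in WT and 4947 to 5254 CPM in METTL3-KO samples. Over the alternative settings, 5 to 9 of them were higher and 0 to 1 lower, with 1 lower without both replicate 3 libraries. HSPH1, a co-chaperone of HSP70, rose by 0.79 (SE 0.0737, adjusted p = 1.68e-05 by edgeR), DNAJB1 by 0.54 (SE 0.0801, adjusted p = 0.000427) and BAG3 by 0.56 (SE 0.0852, adjusted p = 0.000473) on the log2 scale. HSPA1A rose by 0.68 (SE 0.118, adjusted p = 0.0012), but it is nearly identical to HSPA1B, so its value is uncertain. Of 12 markers of colorectal epithelium, 5 rose (41.7%, against 13.3% of all tested genes) and 1 fell (8.33%, against 13.2%), and their summed level was 6573 to 8100 CPM in WT and 9626 to 10624 CPM in METTL3-KO samples. Without METTL3-KO replicate 2 or with the replicate block 3 were higher, and 2 were lower without WT replicate 3 and 5 without both replicate 3 libraries. KRT20, a keratin of differentiated colonic cells, rose 2.83-fold (SE 0.0928 on the log2 scale, adjusted p = 1.16e-06), KRT19 by 0.82 (SE 0.103, adjusted p = 0.000134) and VIL1, the microvillus protein villin, by 0.62 (SE 0.0658, adjusted p = 3.91e-05), whereas LGR5, the intestinal stem cell marker, fell by 1.39 (SE 0.139, adjusted p = 2.72e-05), on the log2 scale by edgeR. EPCAM was at 476 to 560 CPM in every sample.

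Of 13 markers of fibroblasts, blood cells and endothelium, 3 had no counts in any sample and 7 were tested. Of these, 1 rose (14.3%, close to the 13.3% of all tested genes) and none fell (against 13.2%). Their summed level was 10.5 to 13.1 CPM in WT and 15.4 to 20.7 CPM in METTL3-KO samples. Most of it came from COL1A1 (means of 5.42 and 6.99 CPM) and CD14 (5.85 and 8.03 CPM), and neither was called. The gene that rose was LUM, a matrix proteoglycan of fibroblasts, from 0.393 ± 0.156 to 2.23 ± 0.302 CPM (SD, n = 3 each; log2 fold change 2.46, SE 0.287, adjusted p = 8.12e-05 by edgeR). Whether heat shock response, differentiation state or other cells had a part in the members' change was not tested.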

How the data were processed

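HCT116 WT and METTL3-KO cells were profiled by RNA-seq (n = 3 each), grouped by the labels. Read pairs were aligned by the authors to hg19 (TopHat 2.0.11, Ensembl GRCh37 index) and assigned to genes by htseq-count in union mode. The deposited files hold these unnormalized counts by gene symbol. The strand setting and HTSeq version are not given in the sources used here. The submitters' files call the groups NC and SiM3 and use other numbers for WT samples than the labels do. Label numbers were used.

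Genes had to reach a total of 5 counts in either group, which 22452 did. METTL3-KO was compared with WT by edgeR's quasi-likelihood test (edgeR 4.0.16, R 4.3.3; TMM, two-sided) with Benjamini-Hochberg adjustment over all tested genes. SE is the log2 fold change divided by the root of F. The common biological coefficient of variation was 0.0907. At an unadjusted p under 0.05, 4139 genes were higher and 4281 lower. Alternatives were DESeq2 1.42.0, RLE normalization, filterByExpr, no filter, the replicate number as a block, each sample or both replicate 3 libraries left out, and a correction for transcript length and GC content (splines, 5 degrees of freedom). The procedure was tested on simulated counts.

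Same-numbered samples did not deviate together (correlations of -0.586, -0.39 and -0.784), so the numbers were not taken as pairs. Some samples with different numbers did. The correlation with METTL3-KO replicate 3 was 0.719 for WT replicate 1 and 0.632 for WT replicate 2. That of WT replicate 3 was 0.657 with METTL3-KO replicate 1 and 0.505 with METTL3-KO replicate 2. Whether libraries shared a batch was not tested. No GEO sample was left out. Named genes were the members, METTL3, genes overlapping a member, up to 4 called genes per list with the smallest adjusted p and a mean CPM of at least 1, and the 3 genes most like the member with the smallest p. Some genes that this rule selects are not reported here. Members and lists were chosen with earlier results of these data known. Of 56638 symbols, 35694 matched GENCODE (GRCh37) for lengths and 3′UTRs, and promoters were from RefSeq.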

Additional observations from a re-analysis of the deposited data

How the results depend on the processing

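The 5 members called higher (FOS, FOSB, FOSL1, JUNB, EGR1) were called in all 14 alternative settings, and the number of members called higher ran from 5 to 7. No member was called lower in the settings with all 6 samples. Without WT replicate 3 there was 1 (JUND), so that the count ran from 0 to 1 with a single sample left out, and without both replicate 3 libraries there were 2 (JUN and JUND). The log2 fold change of ATF3 was -0.06 without WT replicate 2, within a range of -0.06 to 0.27 with a single sample left out. Of 153 values of single members and METTL3 under the alternatives, 144 stayed on their side of the threshold with their direction, 8 passed in addition and 1 changed sign. Over all genes, 1810 were called higher and 1719 lower with the replicate number as a block, and 4555 and 4823 without both replicate 3 libraries, against 2986 and 2959. The labels' numbers were not supported as pairs. With the block, the adjusted p by edgeR was 0.0214 for FOS, 0.00128 for FOSB, 0.0129 for FOSL1, 0.0267 for JUNB and 0.00309 for EGR1, so no member's call changed. The cause of the differences between settings was not tested. Depth limits BATF3, whose counts did not exceed 5 in any sample, and DESeq2 gave it no adjusted p. The design has 3 samples a group and 1 knockout clone, and the strand setting may touch JUNB.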
